A study of Mus musculus with 9 samples.

Results

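Pneumospheres are clusters that dissociated embryonic lung cells form in suspension culture. The comparison described here sets the 3 libraries labelled day 10 against the 3 labelled day 7, chosen by the labelled day alone. These are 6 of the 9 libraries of the series. The other 3, from day 3, also entered the fit and its estimate of the spread, on which the p-values rest. All 9 came from lungs of C57/B6 mouse embryos taken at E11.5, and the labels give no treatment and no engineered allele. A short step on ordinary plastic, meant to remove attaching mesenchymal cells and so enrich the epithelium, came before plating. The remaining cells grew at 50000 cells per ml in low-attachment wells, in medium with B27, heparin, bFGF at 20 ng/ml and EGF at 10 ng/ml, under 5% O2 and 10% CO2. Cultures were split on days 3 and 7, so the day 7 libraries follow the last split by 4 days and the day 10 libraries by 3 days, and age in culture and time since a split cannot be told apart. Whether libraries of 1 day come from separate cultures, or how many embryos were pooled, is stated nowhere in the labels, so p-values measure only the spread between these libraries, which may be technical.

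The lung bud at this stage is a branching epithelial tube in a bed of mesenchyme. Its tips hold progenitors that express the transcription factor Sox9, and the mesenchyme supplies growth factors and most of the extracellular matrix. Collagens and proteoglycans laid down by its fibroblasts form the fibrils and basement membranes of the tissue. Aurora kinase B, encoded by Aurkb and named in the title of the series, is the catalytic subunit of the chromosomal passenger complex, which corrects chromosome attachment and drives the last steps of mitosis.

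Levels are given as CPM, counts per 1e6 counts of the library, scaled by TMM factors, in the order of replicates 1, 2 and 3, and changes as log2 of day 10 over day 7. The labelled epithelial enrichment was checked against 18 lung epithelial genes. Nkx2-1, the transcription factor that defines lung epithelium, had no count in all 6 libraries, and neither had Foxa1, Shh nor Cldn6; a count of 0 allows up to 0.0985 to 0.145 CPM (3 counts in a library). Epcam, an epithelial adhesion protein, measured 0.117 ± 0.100 CPM on day 7 and 0.113 ± 0.0395 CPM on day 10 (SD, n = 3 each), and only 4 of the 18 genes passed the filter on low counts, none of them called. Vim, the intermediate filament protein of mesenchymal cells, measured 723 ± 94.0 CPM on day 7 and 817 ± 95.8 CPM on day 10 (log2 change 0.18, adjusted p = 0.398). On both days the epithelial markers were thus near or below the counting limit, while Vim was far above it.

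The 6 libraries held between 20716878 and 30466712 counts. The first principal component of the 6 libraries, with 44.45% of the variance, separated the days, and the second, with 22.95%, set day 10 replicate 3 apart from day 10 replicates 1 and 2. Of 27179 gene identifiers, 14940 passed the filter, and 1271 of them (8.51%) differed between the days by edgeR's quasi-likelihood test at a Benjamini-Hochberg adjusted p under 0.05, called genes from here on. A total of 659 genes (4.41%) were called higher and 612 (4.10%) lower on day 10, 193 (1.29%) and 223 (1.49%) of them by at least 2-fold. The levels of the 2 days did not overlap between libraries for 3884 genes (26.0%), and the median change over all tested genes was 0.0022, with 50.4% above 0.

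The number of called genes depended on the libraries in the fit. It was 290 when the spread was estimated from the 6 libraries alone, 304 without day 7 replicate 2 and 2114 by DESeq2. Without day 10 replicate 3 it was 1551, with 759 genes (5.00%) higher and 792 (5.21%) lower. None of the 1271 genes changed sign in any of 20 other settings, and 201 of them, 117 higher and 84 lower, were called in every setting. A gene is described below as called throughout where this held. Any other called gene was not called in at least 1 setting, except in lists where only the number of such calls is given. Among the 62 gene lists used below, 48 had fewer calls and none more without day 7 replicate 2, while 36 had more and 10 fewer without day 10 replicate 3. The share of a list called is to be read beside 4.41% of all tested genes called higher and 4.10% called lower. With library sizes alone in place of TMM factors, 39.3% of called genes were higher in place of 51.8%.

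**Figure D1:**
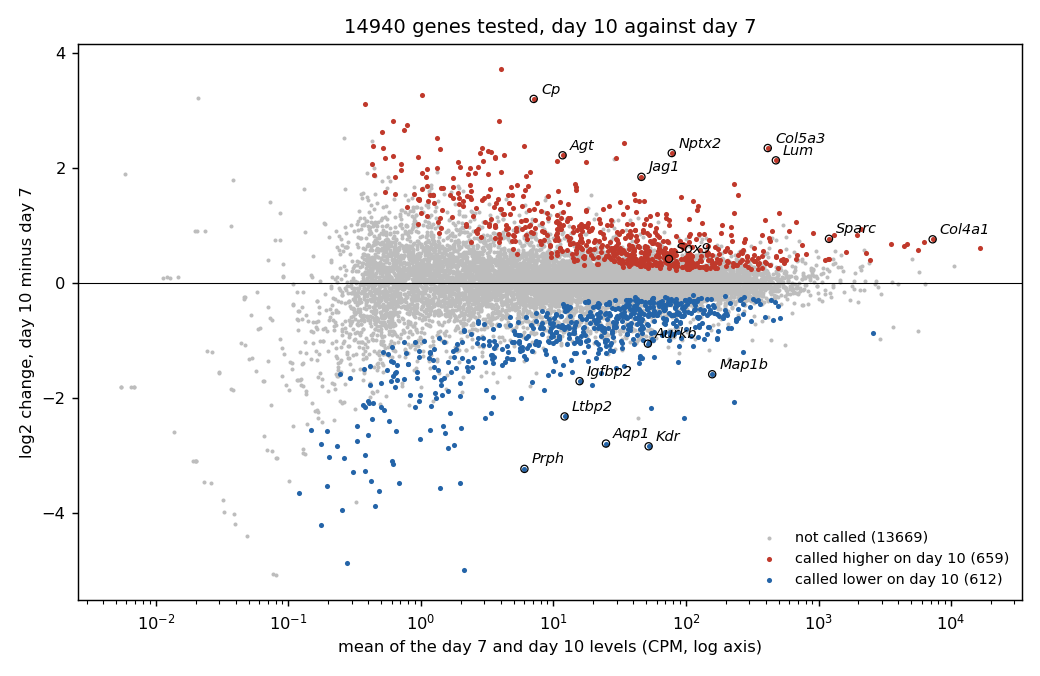
Each point is 1 of the 14940 tested genes, with its mean level over the 2 days in CPM on a log axis and its log2 change from day 7 to day 10; the 659 genes called higher are red, the 612 called lower are blue, the others grey. Circled and named genes are described in the text, from Cp (3.19) at the top to Prph (-3.23) at the bottom.

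The 15 largest rises among genes that reached a mean of 10 CPM on day 10, and whose libraries did not overlap, included matrix proteins, secreted plasma-type proteins and membrane proteins. Col5a3, an alpha chain of type V collagen (chromosome 9), measured 148, 139 and 122 CPM on day 7 and 878, 547 and 649 CPM on day 10 (log2 change 2.34, SE 0.18, adjusted p = 0.000762). Lum, lumican, a small proteoglycan that spaces collagen fibrils (chromosome 10), measured 205, 154 and 173 CPM on day 7 and 1010.0, 668 and 649 CPM on day 10 (log2 change 2.13, SE 0.20, adjusted p = 0.00151). Mmp19, a secreted metalloprotease, measured 12.9, 9.25 and 10.1 CPM on day 7 and 52.7, 36.9 and 55.2 CPM on day 10 (log2 change 2.17, SE 0.20, adjusted p = 0.00146). The rule required each day 10 library to lie above every day 7 library, and all 3 calls held throughout.

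Another 3, secreted proteins best known from the liver as its source, were in the same group. Cp, ceruloplasmin, the copper-carrying ferroxidase of plasma, had the largest of the 15 changes, at 1.74, 0.740 and 1.68 CPM on day 7 and 10.2, 5.88 and 22.4 CPM on day 10 (log2 change 3.19, SE 0.50, adjusted p = 0.00894). Agt, angiotensinogen, the precursor of angiotensin, measured 4.60, 3.78 and 4.06 CPM on day 7 and 18.6, 10.3 and 29.0 CPM on day 10 (log2 change 2.22, SE 0.33, adjusted p = 0.00724). Day 10 replicate 3 was the highest library for both. Trf, transferrin, which carries iron, measured 6.48, 6.09 and 7.65 CPM on day 7 and 33.6, 12.4 and 20.7 CPM on day 10 (log2 change 1.72, SE 0.37, adjusted p = 0.024), with replicate 1 the highest. Cp and Agt were called throughout; Trf lost its call when any 1 of the 3 day 7 libraries was left out.

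Jag1, a membrane-bound ligand of Notch receptors, measured 18.3, 22.4 and 19.7 CPM on day 7 and 87.4, 84.2 and 44.7 CPM on day 10 (log2 change 1.84, SE 0.22, adjusted p = 0.00376). Nptx2, a secreted pentraxin, measured 28.9, 31.0 and 21.2 CPM on day 7 and 169, 150.3 and 67.7 CPM on day 10 (log2 change 2.25, SE 0.34, adjusted p = 0.00773). Both were lowest on day 10 in replicate 3, and both were called throughout. Clec14a, a C-type lectin known from endothelium (log2 change 1.92, SE 0.25, adjusted p = 0.0038), Lsamp, an adhesion protein of the immunoglobulin family (log2 change 1.66, SE 0.22, adjusted p = 0.00376), and Abca8a, a lipid transporter (log2 change 1.72, SE 0.28, adjusted p = 0.0104), were called throughout as well. Crabp1, a cytosolic binding protein for retinoic acid, spread widely on day 10, at 11.4, 6.87 and 13.3 CPM on day 7 and 118, 32.5 and 21.8 CPM on day 10 (log2 change 2.43, SE 0.61, adjusted p = 0.0432). Slc1a1, a glutamate transporter, spread likewise, at 7.40, 5.55 and 6.87 CPM on day 7 and 57.2, 19.1 and 9.42 CPM on day 10 (log2 change 2.10, SE 0.54, adjusted p = 0.0446). Both lost their calls when any 1 day 7 library was left out. Cpz, a carboxypeptidase of the matrix (log2 change 2.37, SE 0.55, adjusted p = 0.0322), and Fah, the last enzyme of tyrosine breakdown (log2 change 2.11, SE 0.39, adjusted p = 0.0143), lost their calls without day 7 replicate 2.

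The 15 largest falls chosen by the same rule began with Prph, peripherin, an intermediate filament protein of peripheral neurons, at 10.8, 18.6 and 3.32 CPM on day 7 and 1.39, 1.72 and 0.423 CPM on day 10 (log2 change -3.23, SE 0.66, adjusted p = 0.0209). Kdr, the main VEGF receptor of endothelium, measured 70.3, 151 and 53.7 CPM on day 7 and 7.49, 24.5 and 6.35 CPM on day 10 (log2 change -2.84, SE 0.57, adjusted p = 0.0222). Scx, scleraxis, the transcription factor of tendon progenitors, measured 70.8, 122 and 75.1 CPM on day 7 and 15.5, 35.6 and 8.11 CPM on day 10 (log2 change -2.18, SE 0.46, adjusted p = 0.0246). Replicate 2 was the highest library on both days for these 3 genes, and none of them was called without day 7 replicate 2 or in the fit to 6 libraries. Kcnj2, a potassium channel (log2 change -1.73, SE 0.46, adjusted p = 0.0489), and Spock3, a matrix proteoglycan (log2 change -1.77, SE 0.34, adjusted p = 0.0171), shared that order of libraries on day 7 and lost their calls the same way.

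Ltbp2, a latent TGF-beta binding protein of elastic fibres, measured 20.1, 24.9 and 15.6 CPM on day 7 and 5.25, 3.92 and 3.03 CPM on day 10 (log2 change -2.32, SE 0.23, adjusted p = 0.00151). Aqp1, a water channel, measured 28.7, 67.0 and 34.7 CPM on day 7 and 7.44, 7.52 and 3.99 CPM on day 10 (log2 change -2.79, SE 0.35, adjusted p = 0.00376). Igfbp2, which binds insulin-like growth factors, measured 28.2, 19.2 and 24.9 CPM on day 7 and 5.70, 6.20 and 10.1 CPM on day 10 (log2 change -1.71, SE 0.22, adjusted p = 0.00403). These 3, with Map1b, a microtubule-associated protein (log2 change -1.59, SE 0.19, adjusted p = 0.00354), and Tmem150c, a membrane protein (log2 change -1.86, SE 0.21, adjusted p = 0.003), were called throughout. On day 3 Igfbp2 had averaged 161 CPM and Ltbp2 0.799 CPM, so that the day 10 level of the first was the lowest of the 3 days and that of the second lay between days 3 and 7. The remaining falls among the 15 were Nnat, Thbs4, Dusp2, Ccdc85a and Ccbe1, with changes between -2.35 and -1.56.

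**Figure D2:**
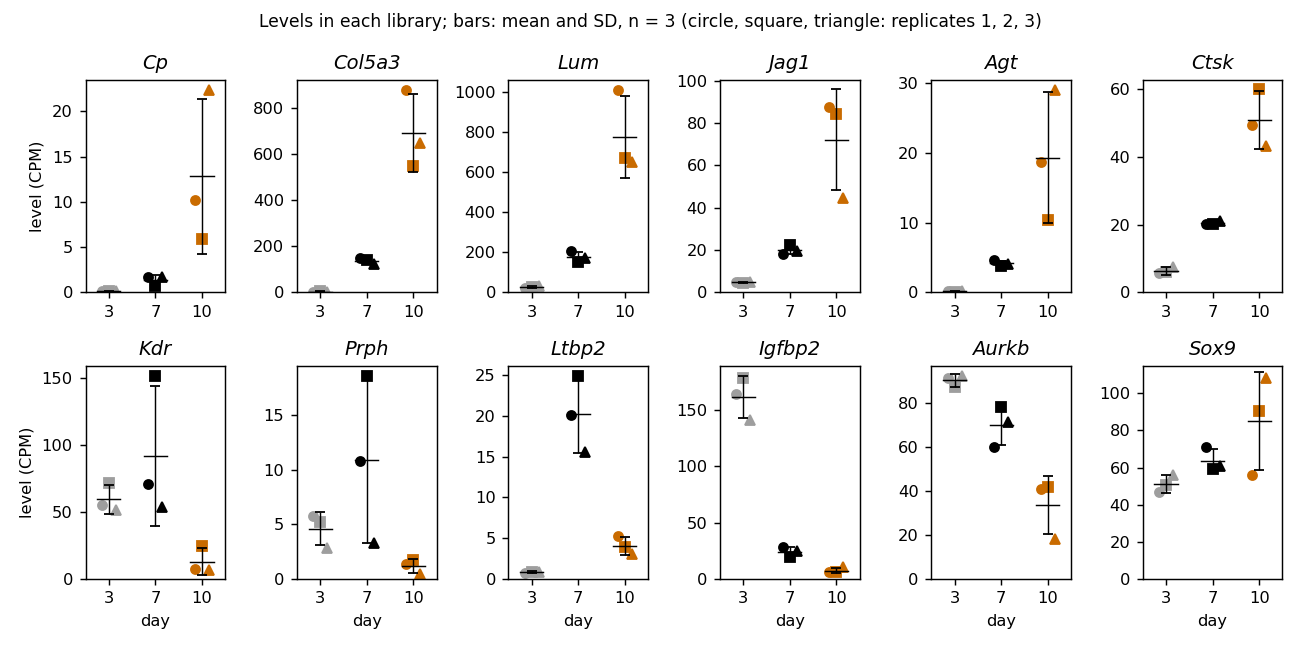
Levels of 12 named genes in CPM on the vertical axis, 1 panel a gene, in each library of days 3, 7 and 10; horizontal and vertical bars give the mean and SD over 3 libraries. On day 10 the first 6 genes lie above all day 7 libraries and Kdr, Prph, Ltbp2, Igfbp2 and Aurkb below them, while Sox9 overlaps. Apart from Ctsk, Aurkb and Sox9, the genes were chosen by a rule that required no overlap. Replicate 2 (square) stands high on day 7 for Kdr and Prph.

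Of the genes of cell division, 9 of 33 on the mitosis list and 17 of 27 on the DNA replication list were called lower on day 10, and none higher. Aurkb (chromosome 11) measured 59.8, 77.8 and 71.2 CPM on day 7 and 40.8, 41.6 and 18.2 CPM on day 10, a fall to 0.481 of the day 7 mean (log2 change -1.06, SE 0.26, adjusted p = 0.038). Every day 10 library was below every day 7 library, and replicate 3 was the lowest. Mki67, the proliferation antigen Ki-67, measured 449.7, 614 and 677 CPM on day 7 and 409, 306 and 162 CPM on day 10 and did not reach the threshold (log2 change -0.99, SE 0.28, adjusted p = 0.0621). Sox9 (chromosome 11) measured 71.2, 59.3 and 60.7 CPM on day 7 and 56.2, 90.3 and 108 CPM on day 10, with overlapping libraries (log2 change 0.42, SE 0.20, adjusted p = 0.236). The call of Aurkb was lost in the fit to 6 libraries and when any 1 library of days 3 or 7 was left out, while Mki67 was called without day 10 replicate 1 or replicate 3 and Sox9 without day 10 replicate 1.

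All 33 genes of the mitosis list (cyclin B and its kinase, the spindle checkpoint, kinetochore and cytokinesis proteins) had a change below 0, from -1.06 to -0.65 with a median of -0.91. Of them 9 (27.3%, beside 4.10% of all genes) were called lower and none higher. Cenpf, a kinetochore protein, measured 83.4, 102 and 113 CPM on day 7 and 65.4, 52.3 and 33.2 CPM on day 10 (log2 change -0.99, SE 0.21, adjusted p = 0.0232). Foxm1, the transcription factor that drives genes of the G2 phase and mitosis, measured 96.3, 118 and 121 CPM on day 7 and 75.1, 70.7 and 40.5 CPM on day 10 (log2 change -0.85, SE 0.20, adjusted p = 0.0324). Libraries of the 2 days did not overlap for 32 of the 33 genes, Incenp being the exception, beside 26.0% of all tested genes. Cks2, which binds cyclin-dependent kinases (log2 change -0.96, adjusted p = 0.0248), and Bub1b, a spindle checkpoint kinase (log2 change -0.86, adjusted p = 0.0345), were the other members of smallest p. The count of 9 depended on the fit: it was 0 with 6 libraries and without day 7 replicate 2 or 3, 22 without day 10 replicate 1, 28 without day 10 replicate 3 and 33 by DESeq2.

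DNA replication genes were called in larger number. Of 27 genes tested, 17 (63.0%, beside 4.10% of all genes) were called lower and none higher, with a median of -0.68. Libraries did not overlap for any of the 27, beside 26.0% of all genes. Chaf1a, a subunit of the chromatin assembly factor that loads histones behind the fork, measured 76.9, 94.9 and 85.3 CPM on day 7 and 58.2, 59.6 and 47.8 CPM on day 10 (log2 change -0.63, SE 0.10, adjusted p = 0.0086). Pold1, the catalytic subunit of DNA polymerase delta, measured 108, 106 and 97.6 CPM on day 7 and 73.6, 78.5 and 62.5 CPM on day 10 (log2 change -0.54, SE 0.09, adjusted p = 0.00886). Both were called throughout. Mcm6 (log2 change -0.57, adjusted p = 0.0137) and Mcm7 (log2 change -0.51, adjusted p = 0.0107), subunits of the replicative helicase, were also lower. With 6 libraries 2 members of the list were called, and 3 were called without day 7 replicate 2.

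The depth of the fall differed between the day 10 libraries. Relative to the day 7 mean, the median of the mitosis genes was -0.515, -0.656 and -1.76 in day 10 replicates 1, 2 and 3, and that of the replication genes -0.543, -0.488 and -1.09. Replicate 3 was the lowest for both lists, and the day 7 libraries lay between -0.284 and 0.192. Over all tested genes the same medians stayed between -0.006 and 0.002.

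**Figure D3:**
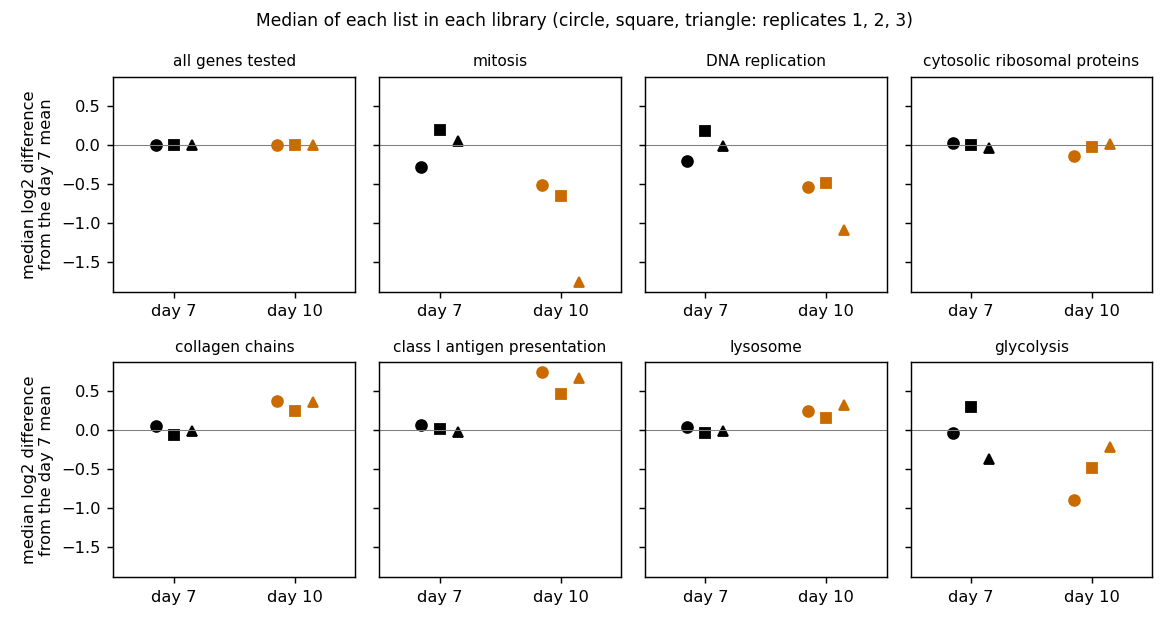
Median log2 difference from the day 7 mean over the members of 7 gene lists and over all tested genes (vertical axis), in each library of days 7 and 10. Mitosis and DNA replication genes lie below 0 on day 10, replicate 3 (triangle) furthest, while collagen, class I and lysosome genes lie above 0 in all 3 day 10 libraries and glycolysis genes overlap between the days.

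Upstream of S phase, 4 of 17 G1 genes (23.5%) were called lower and none higher. E2f1, an activator of S phase genes, measured 76.8, 86.7 and 74.6 CPM on day 7 and 59.9, 55.7 and 55.9 CPM on day 10 (log2 change -0.47, SE 0.08, adjusted p = 0.00924) and was called throughout. Cdk2, the kinase that works with cyclins E and A (log2 change -0.42, adjusted p = 0.00703), E2f2 (log2 change -1.23, adjusted p = 0.0232) and E2f8 (log2 change -1.15, adjusted p = 0.0402) were the others. None of 7 inhibitors of cyclin-dependent kinases was called. Cdkn1a, which encodes p21, measured 75.4 ± 3.32 CPM on day 7 and 95.0 ± 44.4 CPM on day 10 (SD, n = 3 each), with overlapping libraries. Among 19 targets of p53, Fas, a death receptor (log2 change 1.20, adjusted p = 0.0146), and Sesn1, a stress-induced regulator of mTORC1 (log2 change 0.31, adjusted p = 0.0309), were called higher (10.5%) and none lower, with a list median of 0.24.

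Promoter sequences are described for these lists because mitotic genes are known for a CHR element (TTTGAA) near the start site together with CCAAT boxes, and replication genes for E2F sites (cores TTCCCGC and TTGGCGC). RefSeq windows of GRCm38.p6, 250 bases before to 50 after each start, were searched on both strands; a CCAAT match on the plus strand can overlap the reverse complement of the second E2F core. Shown are 2 mitosis and 2 replication genes from those named above, chosen after their matches were seen, 5′ to 3′ on the gene's strand, with every match in capitals.

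Cenpf, chr1:189688037-189688336, minus strand: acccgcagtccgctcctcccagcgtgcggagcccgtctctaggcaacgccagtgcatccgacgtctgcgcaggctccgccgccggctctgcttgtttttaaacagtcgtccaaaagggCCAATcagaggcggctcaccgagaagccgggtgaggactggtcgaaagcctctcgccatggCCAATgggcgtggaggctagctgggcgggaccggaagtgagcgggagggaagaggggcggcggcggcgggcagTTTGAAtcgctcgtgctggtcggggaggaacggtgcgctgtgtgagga

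Bub1b, chr2:118597961-118598260, plus strand: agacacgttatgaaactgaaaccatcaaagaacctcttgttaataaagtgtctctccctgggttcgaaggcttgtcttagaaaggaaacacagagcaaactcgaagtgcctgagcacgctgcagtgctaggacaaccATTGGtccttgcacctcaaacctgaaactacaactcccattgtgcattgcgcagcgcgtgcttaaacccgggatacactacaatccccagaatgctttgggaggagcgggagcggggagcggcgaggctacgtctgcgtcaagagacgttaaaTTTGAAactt

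Chaf1a, chr17:56040166-56040465, plus strand: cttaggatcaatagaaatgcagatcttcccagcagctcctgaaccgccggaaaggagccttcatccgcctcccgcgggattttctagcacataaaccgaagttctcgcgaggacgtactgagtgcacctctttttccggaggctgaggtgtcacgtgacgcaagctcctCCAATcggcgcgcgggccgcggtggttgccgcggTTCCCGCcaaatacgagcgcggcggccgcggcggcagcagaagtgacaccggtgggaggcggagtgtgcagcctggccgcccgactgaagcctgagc

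Mcm6, chr1:128359656-128359955, minus strand: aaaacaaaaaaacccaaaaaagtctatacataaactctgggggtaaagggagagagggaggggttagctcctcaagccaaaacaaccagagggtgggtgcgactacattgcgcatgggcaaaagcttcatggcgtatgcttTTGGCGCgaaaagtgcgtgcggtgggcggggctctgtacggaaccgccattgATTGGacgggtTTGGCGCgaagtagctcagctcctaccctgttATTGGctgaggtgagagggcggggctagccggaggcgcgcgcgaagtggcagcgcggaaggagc

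The windows of Cenpf and Bub1b each held 1 CHR match, downstream of the start, and that of Cenpf 2 CCAAT matches and that of Bub1b 1. Neither held an E2F core. The Chaf1a window held 1 E2F core and 1 CCAAT match, and the Mcm6 window 2 of each, without a CHR match. Windows not shown differed: that of Cks2 held 4 CCAAT matches and neither a CHR match nor an E2F core, and that of Pold1 held 1 E2F core and no CCAAT match. Over the 28 windows of 26 mitosis genes, 71.4% held the CHR element, beside 11.8% of 14341 windows of tested genes and 17.9% of all 32851 windows. An E2F core was in 56.0% of the 25 windows of 22 replication genes, in 17.9% of those of mitosis genes and in 11.7% of those of tested genes. CCAAT was in 78.6%, 60.0% and 37.4% of the windows of mitosis, replication and tested genes. Over all genes called lower, 19.4% of 620 windows held an E2F core and 16.5% the CHR element; over all called higher, 8.19% and 10.1% of 684 windows did. These shares describe letters in the windows and are no measure of a factor's binding. The shares of the mitosis and replication lists cover every member with a window, called or not, and do not bear on the change between days. The genes called lower include the called members of both lists, so their shares are not separate from those of the lists.

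Among the extracellular matrix lists, that of collagen chains had the most genes tested and the most rises by number. Its share called higher was below those of collagen processing genes (34.8%) and small leucine-rich proteoglycans (38.5%). Of 41 collagen chain genes tested, 12 (29.3%, beside 4.41% of all genes) were called higher and 2 lower, with a median of 0.44 beside 0.0022 for all genes. Col4a1, which with Col4a2 forms the type IV collagen network of basement membranes, measured 5472, 4971 and 5762 CPM on day 7 and 9154, 9251 and 8964 CPM on day 10 (log2 change 0.76, SE 0.09, adjusted p = 0.003). Col4a2 measured 3649, 3225 and 3488 CPM on day 7 and 5387, 5344 and 5407 CPM on day 10 (log2 change 0.64, SE 0.08, adjusted p = 0.00355). Col6a2, a chain of the beaded filaments of type VI collagen, measured 3788, 3411 and 3509 CPM on day 7 and 5475, 5707 and 6006 CPM on day 10 (log2 change 0.68, SE 0.08, adjusted p = 0.00352). In all 3, the day 10 libraries lay close together and clear of day 7, and the calls held throughout, as did that of Col5a3. Among members chosen after their values were seen, the fibrillar chains Col3a1 (log2 change 0.60, adjusted p = 0.0143) and Col1a2 (log2 change 0.57, adjusted p = 0.0124) were higher. The 2 chains called lower were Col13a1, a transmembrane collagen (log2 change -0.67, adjusted p = 0.0139), and Col24a1 (log2 change -0.75, adjusted p = 0.0221). Of the 14 calls on the list, 6 held throughout, those of Col4a1, Col4a2, Col6a2 and Col5a3 among them. Leaving out 1 library gave between 8 and 13 collagen chains called higher, and the fit to 6 libraries gave 6.

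Enzymes and chaperones that process collagen gave 8 rises and no fall among 23 genes (34.8% higher), with a median of 0.12. Adamts2, which removes the amino-terminal propeptide of procollagen, measured 149.9, 108 and 130.4 CPM on day 7 and 232, 198 and 277 CPM on day 10 (log2 change 0.86, SE 0.15, adjusted p = 0.0116) and was called throughout. Fkbp14 (log2 change 0.48, adjusted p = 0.0122), a prolyl isomerase of the endoplasmic reticulum, Colgalt1 (log2 change 0.46, adjusted p = 0.0134), which adds galactose to hydroxylysine, and P3h2 (log2 change 0.43, adjusted p = 0.0184), a prolyl 3-hydroxylase, had changes between 0.43 and 0.48. Only 1 of the 8 calls was made without day 7 replicate 2 or with 6 libraries.

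Of 17 basement membrane genes, 4 were called higher (23.5%) and none lower. Lama2, the alpha 2 chain of laminin, measured 674, 561 and 711 CPM on day 7 and 1102, 1084 and 1343 CPM on day 10 (log2 change 0.86, SE 0.11, adjusted p = 0.00376). Lamc3, the gamma 3 chain, measured 62.4, 49.7 and 31.5 CPM on day 7 and 135, 147 and 124 CPM on day 10 (log2 change 1.497, SE 0.22, adjusted p = 0.00723), and had averaged 0.598 CPM on day 3. Sparc, a collagen-binding glycoprotein, measured 941, 819 and 906 CPM on day 7 and 1555, 1358 and 1616 CPM on day 10 (log2 change 0.76, SE 0.10, adjusted p = 0.00367). All 3 were called throughout, and Nid1, nidogen, which links laminin to type IV collagen (log2 change 0.52, adjusted p = 0.0144), was not called without day 7 replicate 2 or with 6 libraries.

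Small leucine-rich proteoglycans, which bind fibrillar collagens, gave 5 rises and no fall among 13 genes (38.5% higher), with a median of 0.76. Dcn, decorin, measured 1541, 1348 and 1302 CPM on day 7 and 2112, 2600.1 and 2712 CPM on day 10 (log2 change 0.82, SE 0.11, adjusted p = 0.0038) and, with Lum, was called throughout. Prelp (log2 change 1.42, adjusted p = 0.0171), Kera, keratocan (log2 change 1.09, adjusted p = 0.0271), and Omd, osteomodulin (log2 change 1.44, adjusted p = 0.0442), were the others, and 2 were called without day 7 replicate 2.

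Elastic fibre genes split in direction, with 2 of 16 called higher (12.5%) and 3 lower (18.8%). Eln, elastin, the core of the fibre, measured 421, 275 and 272 CPM on day 7 and 570.1, 475 and 561 CPM on day 10 (log2 change 0.73, SE 0.16, adjusted p = 0.024). Emilin2, an elastin-associated glycoprotein, measured 29.0, 20.6 and 16.8 CPM on day 7 and 82.9, 51.3 and 46.6 CPM on day 10 (log2 change 1.44, SE 0.25, adjusted p = 0.012). Mfap4, a microfibril-associated protein, measured 84.1, 51.6 and 56.4 CPM on day 7 and 24.7, 25.4 and 23.3 CPM on day 10 (log2 change -1.39, SE 0.16, adjusted p = 0.00317). Ltbp1, a latent TGF-beta binding protein (log2 change -1.99, adjusted p = 0.00494), fell with Mfap4 and Ltbp2, and these 3 falls were called throughout, whereas Eln and Emilin2 were not called without day 7 replicate 2.

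Among 23 matrix proteases and inhibitors, Mmp19, Mmp3, stromelysin (log2 change 3.26, adjusted p = 0.0154), and Adamts4, an aggrecanase (log2 change 0.50, adjusted p = 0.0423), were called higher and Mmp17, a membrane-anchored protease (log2 change -1.06, adjusted p = 0.0232), lower. Mmp3 had few reads, at 0.197, 0.288 and 0.0780 CPM on day 7 and 2.08, 0.840 and 2.58 CPM on day 10. Of 15 matricellular proteins only Thbs4, thrombospondin 4, was called, at 251, 531 and 338 CPM on day 7 and 84.4, 133 and 48.5 CPM on day 10 (log2 change -2.07, SE 0.37, adjusted p = 0.013). That call was lost without day 7 replicate 2.

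**Figure D4:**
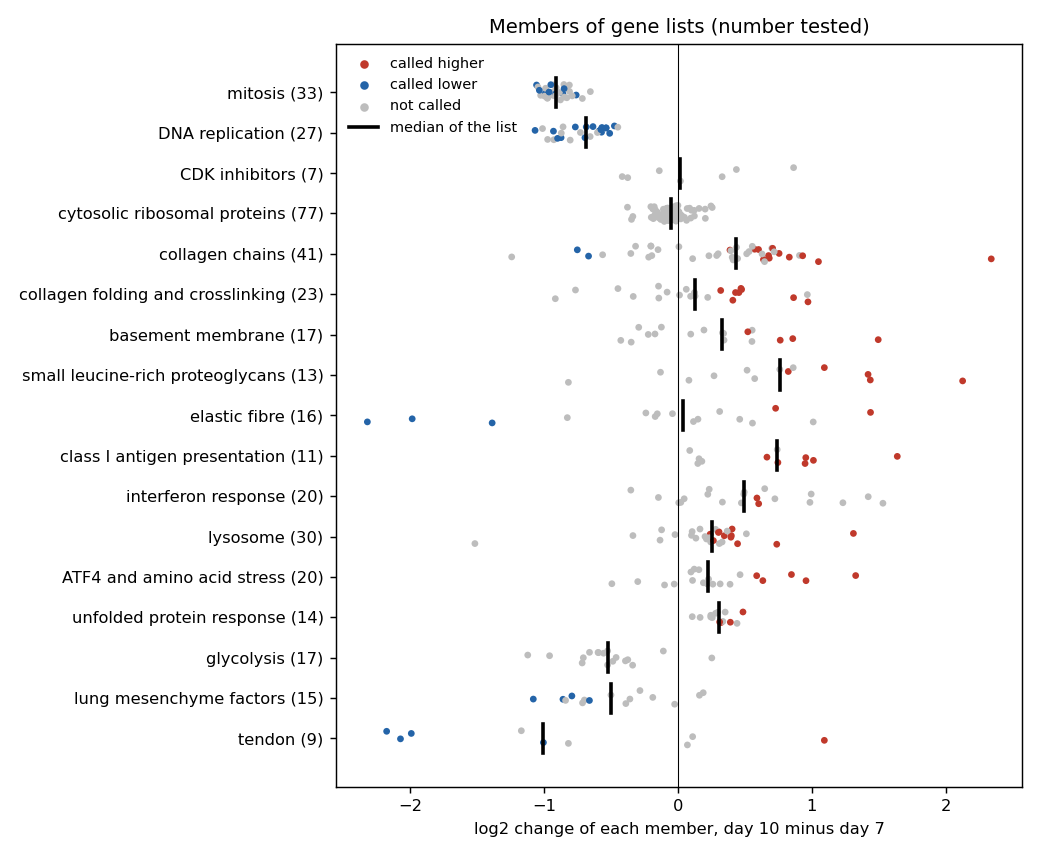
Log2 change from day 7 to day 10 (horizontal axis) of each tested member of 17 gene lists, with the number tested in brackets; red and blue points are called higher and lower, grey points not called, and black bars give list medians. Mitosis and DNA replication members all lie left of 0, class I and unfolded protein response members all right of it, and elastic fibre and tendon members on both sides.

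Genes that present antigen on MHC class I molecules were also among the rises. Of 11 tested, 6 (54.5%) were called higher and none lower, all 11 had a change above 0, and the median was 0.74. Tap1, a subunit of the transporter that carries peptides into the endoplasmic reticulum, measured 8.55, 7.57 and 8.04 CPM on day 7 and 13.9, 12.4 and 14.3 CPM on day 10 (log2 change 0.75, SE 0.14, adjusted p = 0.0135). Tapbp, tapasin, which tethers that transporter to class I molecules, measured 19.3, 17.6 and 17.0 CPM on day 7 and 31.6, 25.00 and 29.0 CPM on day 10 (log2 change 0.67, SE 0.12, adjusted p = 0.0135). Tap2, the second subunit, measured 9.08, 6.09 and 6.75 CPM on day 7 and 14.5, 12.5 and 17.3 CPM on day 10 (log2 change 1.01, SE 0.22, adjusted p = 0.0232). No library overlapped between the days for these 3. Psmb8, a subunit of the immunoproteasome (log2 change 1.64, adjusted p = 0.0243), and the heavy chains H2-D1 (log2 change 0.95, adjusted p = 0.0221) and H2-K1 (log2 change 0.96, adjusted p = 0.0316), named after their values were seen, were the others. The heavy chains have near-identical relatives among which counting can split reads, so their values are uncertain. None of the 6 was called without day 7 replicate 2, and 2 were called with 6 libraries.

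Of 20 interferon response genes, 2 were called higher (10.0%) and none lower, with a median of 0.49 and 18 changes above 0. Ifitm3, an antiviral membrane protein, measured 58.2, 49.7 and 56.9 CPM on day 7 and 78.1, 76.9 and 95.4 CPM on day 10 and was called higher (log2 change 0.60, SE 0.13, adjusted p = 0.0209). Isg15, a ubiquitin-like interferon-induced protein, measured 0.395, 0.452 and 0.312 CPM on day 7 and 0.793, 1.76 and 0.811 CPM on day 10, without overlap and without a call (log2 change 1.53, adjusted p = 0.0664).

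Complement genes gave 4 rises (36.4%) and no fall among 11. Serping1, the inhibitor of C1, measured 21.4, 14.2 and 18.4 CPM on day 7 and 36.3, 28.2 and 44.3 CPM on day 10 (log2 change 1.01, SE 0.18, adjusted p = 0.0127). C1ra, a protease of the C1 complex, rose too (log2 change 1.20, adjusted p = 0.0381). C3, the central component, had few reads, at 0.197, 0.247 and 0.156 CPM on day 7 and 2.03, 1.36 and 0.741 CPM on day 10 (log2 change 2.74, adjusted p = 0.0215). Without day 7 replicate 2 or 3 only 1 of the 4 was called.

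Chemokines and cytokines gave 5 rises and no fall among 13 genes (38.5% higher). Cxcl14, a chemokine of stroma and epithelia, measured 0.691, 0.288 and 0.702 CPM on day 7 and 13.3, 4.88 and 4.37 CPM on day 10 (log2 change 3.71, SE 0.50, adjusted p = 0.0045) and was called throughout. Cx3cl1, fractalkine, measured 59.5, 40.0 and 44.2 CPM on day 7 and 121, 80.8 and 105 CPM on day 10 (log2 change 1.09, SE 0.17, adjusted p = 0.00888). Csf1, which sustains macrophages (log2 change 0.63, adjusted p = 0.0318), Ccl11, eotaxin (log2 change 1.71, adjusted p = 0.0107), and Ccl2, which attracts monocytes (log2 change 2.16, adjusted p = 0.0282), also rose. In the same libraries the leukocyte list had no called gene among 6 tested, and its 12 markers summed to between 4.97 and 13.9 CPM on day 7 and between 4.45 and 7.93 CPM on day 10.

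Lysosomal genes gave 11 rises and no fall among 30 (36.7% higher), with a median of 0.26. Ctsk, cathepsin K, a collagen-degrading protease, measured 20.2, 20.2 and 21.1 CPM on day 7 and 49.5, 60.1 and 43.2 CPM on day 10 (log2 change 1.31, SE 0.14, adjusted p = 0.00206) and was called throughout. Tpp1, a tripeptidyl peptidase (log2 change 0.45, adjusted p = 0.0155), and Psap, the precursor of the saposins (log2 change 0.40, adjusted p = 0.0268), rose less. Only 1 of the 11 was called without day 7 replicate 2 or with 6 libraries.

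Stress pathways of amino acid supply and of the endoplasmic reticulum held rises and no fall. Of 20 genes linked to the transcription factor ATF4, 5 were called higher (25.0%) and none lower. Ddit3, which encodes CHOP, measured 20.5, 23.0 and 23.4 CPM on day 7 and 38.0, 47.6 and 34.8 CPM on day 10 (log2 change 0.85, SE 0.12, adjusted p = 0.00468) and was called throughout. Trib3, a pseudokinase induced by CHOP, measured 11.6, 17.8 and 15.8 CPM on day 7 and 26.0, 55.1 and 32.0 CPM on day 10 (log2 change 1.33, SE 0.27, adjusted p = 0.0193). Nupr1, a stress-induced chromatin protein (log2 change 0.96, adjusted p = 0.0143), Aldh1l2, a mitochondrial folate enzyme (log2 change 0.63, adjusted p = 0.0228), and Cebpb, a bZIP factor (log2 change 0.59, adjusted p = 0.0445), were the others. Only 1 of the 5 was called without day 7 replicate 2.

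All 14 genes of the unfolded protein response had a change above 0, between 0.11 and 0.49, and 4 (28.6%) were called higher. Dnajb9, a co-chaperone of BiP, measured 37.0, 30.6 and 33.1 CPM on day 7 and 40.8, 47.2 and 52.9 CPM on day 10 (log2 change 0.49, SE 0.11, adjusted p = 0.0232). Herpud1 (log2 change 0.39, adjusted p = 0.0295) and Sel1l (log2 change 0.31, adjusted p = 0.0249), which serve the degradation of misfolded proteins, and Dnajc3, an inhibitor of eIF2alpha kinases (log2 change 0.32, adjusted p = 0.0269), were the others. No member was called with 6 libraries or without day 7 replicate 2 or 3, and 8 were called without day 10 replicate 3. Among 17 targets of Nrf2, Gstm1, a glutathione transferase (log2 change 0.64, adjusted p = 0.0358), was the only call, in a list with a median of -0.03.

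Metabolic lists held few calls. Among 77 cytosolic ribosomal protein genes no gene was called and the median was -0.05, and among 53 subunits of respiratory complexes I, III and IV no gene was called and the median was -0.03. Many of these genes have processed copies elsewhere in the genome, which can divert reads. None of 17 glycolytic genes was called, although 16 had a change below 0 and the median was -0.53. The median of this list in single libraries ran from -0.372 to 0.300 on day 7 and from -0.899 to -0.213 on day 10, so the days overlapped. Slc16a3, the lactate exporter, had the lowest change, at 113, 132 and 58.1 CPM on day 7 and 18.3, 43.6 and 76.7 CPM on day 10 (log2 change -1.12, adjusted p = 0.192). The hypoxia response list likewise had no call among 17, with a median of -0.28. Without day 10 replicate 3, 6 hypoxia genes and 2 glycolytic genes were called lower.

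Lipid synthesis gave 4 falls and no rise, 2 of 24 sterol genes (8.33%) and 2 of 12 fatty acid genes (16.7%), beside 4.10% of all genes. Srebf2, the transcription factor of sterol synthesis, measured 376, 399 and 352 CPM on day 7 and 312, 305 and 283 CPM on day 10 (log2 change -0.32, SE 0.08, adjusted p = 0.0315). Stard4, a sterol carrier, had a log2 change of -0.51, and the 2 were the only calls among sterol genes. Fasn, fatty acid synthase, measured 413, 430.4 and 381 CPM on day 7 and 343, 294 and 309 CPM on day 10 (log2 change -0.37, SE 0.08, adjusted p = 0.0255). Fads2, a fatty acid desaturase, had a log2 change of -0.37, and the 2 were the only calls among fatty acid genes. None of the 4 was called with 6 libraries or without day 7 replicate 2, whereas 10 sterol genes were called lower without day 10 replicate 1.

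Transcription factors of lung mesenchyme were among the falls, with 4 of 15 (26.7%) called lower, none higher and a median of -0.50; 7 were called lower without day 10 replicate 3. Tbx5, needed for lung bud outgrowth, measured 12.2, 12.96 and 10.96 CPM on day 7 and 7.29, 6.36 and 7.23 CPM on day 10 (log2 change -0.79, SE 0.10, adjusted p = 0.0038). Hlx, a homeobox factor of visceral mesenchyme, measured 94.2, 92.6 and 83.5 CPM on day 7 and 41.9, 54.9 and 52.1 CPM on day 10 (log2 change -0.86, SE 0.11, adjusted p = 0.00376). Foxp1, a forkhead repressor, measured 56.3, 56.1 and 56.4 CPM on day 7 and 31.9, 31.9 and 42.9 CPM on day 10 (log2 change -0.66, SE 0.12, adjusted p = 0.0116). The libraries of each day lay close together for Tbx5 and Hlx, and all 3 calls held throughout; Tbx4, the close relative of Tbx5 (log2 change -1.08, adjusted p = 0.0201), was not called without day 7 replicate 1 or 2. On day 3 Tbx5 had averaged 48.7 CPM.

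Prrx1, a homeobox factor best known from limb bud and facial mesenchyme, moved the other way, at 75.4, 69.0 and 65.6 CPM on day 7 and 212, 157 and 163 CPM on day 10 (log2 change 1.34, SE 0.14, adjusted p = 0.00206). It had averaged 4.40 CPM on day 3 and was called throughout. It was the only rise among 11 tested genes of that list, and 1 was called lower. Among 20 Hox genes, Hoxb6 (log2 change -0.79, adjusted p = 0.0179) and Hoxb2 (log2 change -0.40, adjusted p = 0.025) were called lower (10.0%) and none higher. No Hox gene was called lower without day 7 replicate 1 or 2, and 7 were called lower and 2 higher without day 10 replicate 3.

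Tendon genes did not move as 1 group. Of 9 tested, 4 were called lower: Scx, Thbs4, Mkx, a homeobox factor of tendon (log2 change -1.99, adjusted p = 0.0423), and Cilp2, a matrix protein (log2 change -1.005, adjusted p = 0.0483). Kera was called higher, at 238, 288 and 224 CPM on day 7 and 631, 654 and 316 CPM on day 10. Tnmd, tenomodulin, a marker of differentiated tendon cells, measured 131, 369 and 116 CPM on day 7 and 88.1, 154 and 31.4 CPM on day 10 and overlapped (log2 change -1.17, adjusted p = 0.266). Without day 7 replicate 2 none of the 4 falls was called.

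Other mesenchymal lineages gave scattered calls. Neither 14 smooth muscle genes nor 9 cartilage genes held a call; Acta2, smooth muscle actin, measured 295 ± 56.8 CPM on day 7 and 355 ± 129 CPM on day 10 (SD, n = 3 each). Pdgfrb, the PDGF receptor of pericytes and fibroblasts, measured 1307, 1246 and 1386 CPM on day 7 and 1852, 2078 and 1792 CPM on day 10 (log2 change 0.54, SE 0.10, adjusted p = 0.0138). It was the only call among 8 pericyte genes and among 7 PDGF pathway genes. Of 8 osteogenic genes, Alpl, alkaline phosphatase (log2 change 0.86, adjusted p = 0.0348), was higher and Phex, an endopeptidase of bone cells (log2 change -1.29, adjusted p = 0.0345), lower. Alpl was not called with 6 libraries, without any 1 library of days 3 or 7, or without day 10 replicate 2 or 3. Of 9 adipogenic and lipofibroblast genes, Plin2, a lipid droplet protein (log2 change 0.47, adjusted p = 0.0121), and Cebpa (log2 change 0.58, adjusted p = 0.0225) were higher. Cd36, a fatty acid transporter, was lower, at 372, 403 and 358 CPM on day 7 and 180.3, 159 and 153 CPM on day 10 (log2 change -1.20, SE 0.08, adjusted p = 0.000489). Its call held throughout.

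Each signalling list held between 0 and 8 calls. The medium supplied bFGF and EGF. The only call among 9 FGF ligands and receptors was Fgf10, the mesenchymal ligand for epithelial branching, at 34.0, 25.8 and 23.5 CPM on day 7 and 44.1, 35.4 and 41.9 CPM on day 10 (log2 change 0.54, SE 0.14, adjusted p = 0.0446). Among 11 EGF family genes only Nrg1, neuregulin 1, was called (log2 change -1.04, adjusted p = 0.0318). No call was made among 14 genes of the ERK response and feedback. Of 19 immediate early genes, Dusp1, a phosphatase that acts on MAP kinases, measured 38.4, 28.1 and 31.3 CPM on day 7 and 19.3, 15.1 and 14.99 CPM on day 10 (log2 change -0.99, SE 0.14, adjusted p = 0.00496) and was called throughout. Nr4a3, a nuclear receptor, was also lower (log2 change -0.94, adjusted p = 0.0137). The calls of Fgf10 and Nrg1 were lost with 6 libraries, without any 1 day 3 library and without day 7 replicate 2 or 3. That of Fgf10 was also lost without day 10 replicate 1 or 3, and that of Nrg1 without day 7 replicate 1 or day 10 replicate 2.

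The Notch list of 16 genes held Jag1 and its pathway's target Hes1, a repressor (log2 change 0.63, adjusted p = 0.0361), as rises, and Nrarp, a feedback inhibitor (log2 change -1.36, adjusted p = 0.0483), as a fall. The call of Nrarp was lost with 6 libraries and in 8 of the 9 fits that left out 1 library. Of 34 Wnt genes, 2 were called higher (5.88%, near the 4.41% of all genes) and 6 lower (17.6%, beside 4.10%). Dkk3, a secreted protein of the Dickkopf family, measured 96.4, 89.3 and 72.5 CPM on day 7 and 181, 171 and 177 CPM on day 10 (log2 change 1.03, SE 0.10, adjusted p = 0.00151). Nkd2, an intracellular inhibitor of the pathway, measured 23.9, 24.1 and 28.6 CPM on day 7 and 13.6, 16.4 and 14.3 CPM on day 10 (log2 change -0.79, SE 0.12, adjusted p = 0.00703). Both were called throughout. Wnt11, a ligand (log2 change -1.17, adjusted p = 0.0149), and Fzd4, a receptor (log2 change -0.57, adjusted p = 0.0194), were lower; 4 of the 6 falls were called without day 7 replicate 2 and 2 with 6 libraries.

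Of 38 genes of the BMP, TGF-beta and activin pathways, 1 was called higher (2.63%, beside 4.41% of all genes) and 5 lower (13.2%, beside 4.10%). Acvr2a, a type II receptor, measured 58.2, 65.8 and 62.8 CPM on day 7 and 92.9, 103 and 83.4 CPM on day 10 (log2 change 0.58, SE 0.10, adjusted p = 0.00919) and was called throughout. Tgfb3, a ligand (log2 change -0.68, adjusted p = 0.0122), Skil, a nuclear corepressor (log2 change -0.53, adjusted p = 0.0278), and Id2, a target that inhibits bHLH factors (log2 change -1.05, adjusted p = 0.0269), were lower. Only 1 of the 5 falls was called without day 7 replicate 2. Gas1, a coreceptor for Hedgehog ligands, measured 549, 645 and 470.0 CPM on day 7 and 339, 383 and 339 CPM on day 10 (log2 change -0.65, SE 0.11, adjusted p = 0.0107) and was the only call among 10 Hedgehog genes. None of 15 YAP targets was called.

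In the IGF pathway, Igfbp2 and Pappa2, a protease of IGF binding proteins (log2 change -2.86, adjusted p = 0.0283), were the only calls among 14 genes. Igf2, the fetal growth factor, measured 4595, 4459.7 and 4794 CPM on day 7 and 1477, 3446 and 3219.9 CPM on day 10, without overlap between the days and without a call (log2 change -0.77, adjusted p = 0.0968). The retinoic acid list gave 3 rises among 16 genes (18.8%), Crabp1 among them. Stra6, the receptor that takes up retinol, measured 37.0, 35.2 and 22.7 CPM on day 7 and 52.9, 80.5 and 71.4 CPM on day 10 (log2 change 1.11, SE 0.21, adjusted p = 0.0149). Aldh1a1, which makes retinoic acid, had a log2 change of 2.81 and lost its call in 7 of 20 settings. None of the 3 was called with 6 libraries. Among 31 semaphorins, plexins and neuropilins 2 were called higher (6.45%, beside 4.41% of all genes) and 4 lower (12.9%, beside 4.10%). Sema3f, a repulsive guidance factor, measured 189, 205 and 173 CPM on day 7 and 118, 121 and 93.5 CPM on day 10 (log2 change -0.77, SE 0.10, adjusted p = 0.00401) and was called throughout. Sema3a (log2 change -0.83, adjusted p = 0.0224) and Sema6a (log2 change -0.40, adjusted p = 0.023) were lower too. Plxnc1, a semaphorin receptor, was higher (log2 change 0.79, adjusted p = 0.026).

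Markers of other cell types were measured alongside. In bulk RNA, fewer cells of a type and less RNA per cell cannot be told apart. All 11 tested endothelial genes had a change below 0, with a median of -0.80, and the 12 markers summed to between 359 and 448 CPM on day 7 and between 209 and 232 CPM on day 10. The median of the list in single libraries ran from -0.560 to 0.410 on day 7 and from -1.34 to -0.093 on day 10, so the days overlapped. Only Kdr and Emcn, endomucin, were called, the latter at 169, 173 and 212 CPM on day 7 and 116, 93.9 and 116 CPM on day 10 (log2 change -0.76, SE 0.11, adjusted p = 0.00702) and throughout. Much of the sum came from these called genes. Emcn averaged 184 CPM on day 7 and 109 CPM on day 10, and Kdr 91.7 and 12.8 CPM. Cdh5, the cadherin of endothelial junctions, measured 1.84, 5.76 and 11.47 CPM on day 7 and 1.59, 3.20 and 5.93 CPM on day 10, with overlap (log2 change -0.80, adjusted p = 0.535), and no marker of the list was at 0 in all 6 libraries. Clec14a, described above as a rise, is also known from endothelium and is outside the list. The part of these markers in the falls of Aqp1 and of Kdr itself was not tested.

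The 3 haemoglobin transcripts called here, abundant on day 3, were low on day 7 and lower still on day 10. Hbb-y, a beta-like globin of primitive red cells, had averaged 934 CPM on day 3 and measured 3.16, 5.35 and 3.74 CPM on day 7 and 0.0991, 0.200 and 0.0706 CPM on day 10 (log2 change -4.99, SE 0.35, adjusted p = 0.000489). Hba-x (log2 change -3.27, adjusted p = 0.00376) and Hba-a2 (log2 change -2.48, adjusted p = 0.0401) were also lower, the latter a near-identical copy of Hba-a1, which had no count in the 6 libraries. These 3 were the calls among 10 erythroid genes tested, and those of Hbb-y and Hba-x held throughout. Of the 10, 2 had a change above 0. The 12 markers summed to 17.6, 12.1 and 16.8 CPM on day 7 and 21.4, 6.84 and 20.3 CPM on day 10. These sums overlapped between the days, so the list did not fall as a whole.

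Neuronal, glial and neuroendocrine genes gave 6 falls (42.9%, beside 4.10% of all genes) and 1 rise among 14, all at low levels. Of the 14, 5 had a change above 0, so not every member fell, and the median was -0.82. The genes named here were chosen after their values were seen. Elavl4, an RNA-binding protein of neurons, measured 2.20, 1.604 and 1.33 CPM on day 7 and 0.198, 0.360 and 0.212 CPM on day 10 (log2 change -2.71, SE 0.32, adjusted p = 0.00317). Stmn2, a neuronal microtubule regulator (log2 change -3.47, adjusted p = 0.0149), and Elavl3 (log2 change -3.44, adjusted p = 0.0111) were lower. So were Ret, a receptor kinase of enteric and autonomic neurons (log2 change -1.37, adjusted p = 0.0303), and Uchl1, a deubiquitinase (log2 change -0.83, adjusted p = 0.0307). Chga, chromogranin A, was higher (log2 change 1.42, adjusted p = 0.0454). Of the 7 calls on the list, 1 held throughout. The list had 3 falls when any 1 day 7 library was left out and 1 with 6 libraries, and no rise in 7 of 9 fits that left out 1 library. The 14 markers summed to between 28.1 and 37.5 CPM on day 7 and between 19.3 and 24.4 CPM on day 10. Their part in the fall of Prph was not tested. Wt1, a mesothelial and mesenchymal factor, measured 37.6, 37.5 and 32.2 CPM on day 7 and 14.4, 19.7 and 25.9 CPM on day 10 (log2 change -0.83, SE 0.20, adjusted p = 0.0338) and was the only call among 3 tested mesothelial genes. Its companion marker Msln, mesothelin, averaged 0.0110 CPM on day 7 and 0.0715 CPM on day 10. Of 3 tested airway genes only Tubb4b, a tubulin that many dividing cells also express (log2 change -0.53, adjusted p = 0.0264), was called. None of 2 tested skeletal muscle genes was called.

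Of 12 genes known from distal tip progenitors, 1 was called higher (8.33%) and 2 lower (16.7%). The 12 summed to between 992 and 1149 CPM on day 7 and between 872 and 1017 CPM on day 10. The 18 lung epithelial genes summed to between 1.37 and 2.43 CPM on day 7 and between 1.69 and 2.43 CPM on day 10. Which cells expressed the list was not tested, so it is not read as a measure of tip progenitors. Clu, clusterin, measured 7.63, 7.24 and 6.90 CPM on day 7 and 28.8, 15.8 and 22.1 CPM on day 10 (log2 change 1.61, SE 0.21, adjusted p = 0.0038) and was called throughout. Mycn (log2 change -1.07, adjusted p = 0.0408) and Id2 were lower. Fetal regulators were among the falls as well. Igf2bp1, a fetal mRNA-binding protein, measured 66.4, 63.7 and 63.1 CPM on day 7 and 39.4, 35.0 and 41.5 CPM on day 10 (log2 change -0.74, SE 0.08, adjusted p = 0.00206) and was called throughout. Igf2bp3 (log2 change -0.33, adjusted p = 0.0312) and Mycn completed 3 falls among 12 oncofetal genes. On day 3 Igf2bp1 had averaged 143 CPM. Mest (log2 change -0.87, adjusted p = 0.0101) and Nnat, at 87.2, 200.2 and 198 CPM on day 7 and 52.4, 35.1 and 7.97 CPM on day 10 (log2 change -2.35, SE 0.59, adjusted p = 0.0439), were the calls among 24 imprinted genes. Dnmt1, the maintenance DNA methyltransferase, measured 267, 308 and 293 CPM on day 7 and 208, 206 and 150.5 CPM on day 10 (log2 change -0.62, SE 0.12, adjusted p = 0.0144). With Suz12, a Polycomb subunit (log2 change -0.31, adjusted p = 0.029), it made up the calls among 11 genes of DNA methylation and Polycomb.

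Of 8 genes for S100 proteins, which bind calcium, 3 were called higher (37.5%) and none lower. S100a6 measured 117, 152 and 147 CPM on day 7 and 426, 279 and 254 CPM on day 10 (log2 change 1.21, SE 0.20, adjusted p = 0.0104). S100a16 (log2 change 1.37, adjusted p = 0.0108) and S100a1 (log2 change 0.99, adjusted p = 0.0138) were the others. The first 2 were called throughout. Among 9 transporters of ABC subfamily A, Abca8a measured 135, 72.9 and 112 CPM on day 7 and 283, 283 and 485 CPM on day 10. Abca8b, a related gene beside it on chromosome 11, rose by 1.01 on the log2 scale and lost its call in 9 of 20 settings. Where their sequences are alike, counting can split reads between them.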

How the data were processed

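Poly(A) RNA from 9 pneumosphere samples, 3 libraries each from days 3, 7 and 10, was sequenced from Illumina TruSeq libraries, per the labels' protocols. The deposited values are raw counts per gene identifier, made by the authors with featureCounts on mm10, per the submitters' processing notes; the sources used here do not give the aligner, annotation or strand setting, so overlapping genes on opposite strands may share counts. Of 27179 identifiers, 25275 were named from RefSeq and 18 from GENCODE; 1886 stayed unnamed. Genes were kept by edgeR's filterByExpr and tested by robust quasi-likelihood (edgeR 4.0.16, R 4.3.3, TMM factors), with all 9 libraries sharing 1 estimate of the spread and day 10 minus day 7 as the contrast. Adjusted p is Benjamini-Hochberg over 14940 genes, with a threshold of 0.05. The biological coefficient of variation was 0.1459, and the counting limits given cover counting error only. The test was also tried on counts simulated with 1 spread for all genes and no deviating library. That trial does not show how the test behaves with libraries as uneven as these.

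Always named were Sox9, Aurkb, Mki67, Epcam, Nkx2-1 and Vim. Also named were the 15 largest called rises and falls with a mean of at least 10 CPM on the higher day and no overlap between days, and, from each of 62 gene lists, up to 4 called members of smallest p at that level, or all called members where 5 or fewer were called; a few genes this rule selects are not reported here. The comparison and the lists were chosen with earlier results of these data known, so list counts are descriptions. Alternatives were DESeq2 1.42.0, other scalings and filters, a replicate block, fewer libraries, and each library left out.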

Additional observations from a re-analysis of the deposited data

How the results depend on the processing

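Under DESeq2 2114 genes were called, 1070 higher and 1044 lower, with 33 mitosis genes lower; with library sizes alone 437 were called higher (39.3% of calls). Without a filter 2 mitosis genes were called lower. With only the 6 libraries of days 7 and 10, 290 genes were called, 177 higher and 113 lower, 85 and 61 of them by at least 2-fold, with 0 mitosis and 2 replication genes; leaving out day 10 replicate 3 as well, a setting chosen after seeing the data, gave 485, 270, 215, 106 and 78, with 8 mitosis and 4 replication genes. Leaving out 1 library at a time gave 304 (without day 7 replicate 2) to 1551 (without day 10 replicate 3) called genes, 144 to 759 higher, 160 to 792 lower, 55 to 217 at least 2-fold higher, 84 to 271 at least 2-fold lower, 0 to 28 mitosis genes and 3 to 20 replication genes lower, and 47.4% to 54.1% of calls higher. Without day 3 replicate 2 and day 10 replicate 3 together 24 mitosis genes were lower.

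The labels do not say whether same-numbered libraries of different days share a culture. Deviations from the day mean correlated at -0.069, 0.433 and 0.142 between same-numbered libraries of days 7 and 10. Not every library correlated best with its own number (day 7 replicate 1 did so with day 10 replicate 3, at 0.221). Deviations from a mean of 3 libraries depend on each other, so these values cannot decide whether the samples were paired. With the replicate number as a block 1374 genes were called, 723 higher and 651 lower, with 5 mitosis and 16 replication genes lower. Of 318 levels of named genes, 4 moved by more than 1 SD with library sizes alone. With 3 libraries a day, counts of calls depend on the estimated spread; the cause of each difference was not tested.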
